A study of Homo sapiens with 4 samples.

Results

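The 56 genes described here encode the machinery that copies nuclear DNA. They were taken from a list of gene symbols that was chosen with earlier results of these data known. It covered the origin recognition complex (ORC), the licensing factors, the MCM proteins, CDC45 and GINS, and the replicative polymerases with primase. It also covered the sliding clamp and its loader, the single-strand binding protein RPA and Okazaki fragment processing. Fork and chromatin assembly factors and the supply of deoxynucleotides completed it. Each gene was represented by the brightest of the probe sets that the array's annotation assigns to that symbol alone, brightness being the mean over all arrays. All 56 had such a probe set, out of 18417 gene symbols measured in this way. CLSPN had 2 such probe sets and every other member had 1.

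PC-3-BM is a bone-metastatic derivative of the human prostate cancer line PC-3, and the labels give it a high metastatic potential. According to the study's methods it was recovered from bone metastases of male nude mice after repeated rounds of injection of PC-3 cells into the heart, and it is called both a clone and a subclone there. Parental PC-3, itself established from a bone metastasis of prostate cancer, is labelled as poorly metastatic. Both lines carried firefly luciferase and green fluorescent protein, each was hybridised to 2 single-colour Affymetrix Human Gene 1.0 ST arrays, and the labels place the cells in mice where the methods describe culture, so the conditions under which the RNA was taken are not settled. The comparison asks how the RNA of these genes differs between the derivative and the line it was selected from.

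The deposited values are log2 expression values made by the robust multichip average (RMA), and every level and difference below is on that log2 scale. Array medians lay between 6.66 and 6.72 over 33297 probe sets, and the arrays of a line correlated at 0.996 (PC-3-BM) and 0.997 (PC-3). The epithelial keratin genes KRT8, KRT18 and KRT19 lay at 8.83 or above on all 4 arrays, and the epithelial marker CDH1 lay at 4.95 to 5.10. Of these epithelial markers and EPCAM, 5 in all, 4 fell in PC-3-BM, with differences of -2.03 (KRT8), -1.30 (EPCAM), -0.40 (KRT18) and -0.33 (KRT19). Among 7 blood cell markers PTPRC, LYZ and MS4A1 lay at 3.70 to 4.10 and CD14 at 6.28 to 6.40, while CD68 was bright in both lines, at 11.43 and 11.32 in PC-3-BM, against 10.66 and 10.66 in PC-3. Of these blood cell markers 1 rose in PC-3-BM (CD68, by 0.72), and of 5 endothelial markers 1 rose (PECAM1, by 0.45). Of 7 stromal and osteoblast markers 2 rose (COL1A1, by 0.68, and LUM, by 0.53). COL1A1 lay at 8.10 to 8.85 over the 4 arrays and PECAM1 at 6.28 to 6.80. LUM lay at 3.50 to 4.15, under the lower quartile of all values (5.02). The part of these marker genes in the results below was not tested.

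Replication starts at origins that ORC marks. During the first gap phase CDC6 and CDT1 help ORC to load the ring-shaped MCM2-7 complex on DNA, a step called licensing that geminin (GMNN) blocks later in the cycle. CDC45 and GINS then join MCM2-7 to form the active helicase, primase with polymerase alpha lays down primers, polymerases delta and epsilon extend them, and the clamp PCNA, loaded by replication factor C (RFC), holds the polymerases on the template. Many of these genes are transcribed late in the first gap phase and in S phase under E2F transcription factors, and their RNA is a familiar correlate of the share of cycling cells. Arrays of whole cell populations cannot tell fewer cells in S phase from less RNA per cell.

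Promoter sequence is shown for the 4 members with the largest falls that have a RefSeq promoter entry, and for MCM6, picked with its values in view, since it did not pass the test and carries paired E2F words. Each line gives the 160 bases before the annotated start, 5′ to 3′ on the gene's strand, from RefSeq on GRCh38.p14: chr10:13161398-13161557 (plus strand) for MCM10, chr20:5126623-5126782 (minus strand) for PCNA, chr16:85688955-85689114 (minus strand) for GINS2, chr3:186806483-186806642 (minus strand) for RFC4 and chr2:135876444-135876603 (minus strand) for MCM6. PCNA has 2 annotated starts, and the more upstream one is shown. Capitals mark an E2F word (TTTGGCGC, TTTCCCGC, TTTCGCGC or TTTGCCGC) or a CCAAT box, read on either strand.
MCM10: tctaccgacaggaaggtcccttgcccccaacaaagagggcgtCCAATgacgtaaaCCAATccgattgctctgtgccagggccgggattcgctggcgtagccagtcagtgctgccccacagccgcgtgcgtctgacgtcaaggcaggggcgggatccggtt
PCNA: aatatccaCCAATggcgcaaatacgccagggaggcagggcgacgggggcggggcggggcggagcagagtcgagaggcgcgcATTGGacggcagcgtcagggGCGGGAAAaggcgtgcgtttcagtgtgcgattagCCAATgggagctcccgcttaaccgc
GINS2: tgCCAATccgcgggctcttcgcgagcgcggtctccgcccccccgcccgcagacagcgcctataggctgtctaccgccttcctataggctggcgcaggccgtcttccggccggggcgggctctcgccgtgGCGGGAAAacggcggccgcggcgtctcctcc
RFC4: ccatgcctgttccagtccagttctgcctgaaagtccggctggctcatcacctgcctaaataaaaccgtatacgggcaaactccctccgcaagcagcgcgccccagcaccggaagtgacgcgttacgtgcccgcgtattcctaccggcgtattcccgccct
MCM6: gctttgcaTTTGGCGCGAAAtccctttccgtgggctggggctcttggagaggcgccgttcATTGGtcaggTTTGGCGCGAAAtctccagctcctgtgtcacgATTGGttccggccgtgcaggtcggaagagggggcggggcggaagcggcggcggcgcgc

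The PCNA and GINS2 stretches each hold a reverse-strand E2F word, 59 and 31 bases before the start, with 3 CCAAT boxes in PCNA and 1 in GINS2. MCM10 holds a pair of CCAAT boxes and no E2F word, and RFC4 holds neither. MCM6 holds overlapping E2F words on both strands at 2 places, beginning 152 and 90 bases before the start. A match is a stretch of letters and says nothing of binding.

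RNA of most of the replication machinery was lower in PC-3-BM. At an adjusted p below 0.05 (limma, Benjamini-Hochberg over all probe sets) 37 of the 56 members fell, or 66.1%, against 11.6% of all probe sets that fell in that fit, and 2 rose (RFC1 and ORC3), against 11.6% of all probe sets that rose. Members are brighter than most probe sets, the dimmest averaging 6.92 where the median of all values was 6.69. Among the 10352 genes no dimmer than that member 21.2% fell. The median difference of PC-3-BM minus PC-3 over the members was -0.48, against -0.02 over all probe sets and -0.02 over those brighter genes. Differences ranged between -1.26 (MCM10) and 0.89 (RFC1).

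Both PC-3-BM arrays lay below both PC-3 arrays for 48 of the 56 members, a pattern seen in 34.3% of all probe sets. They lay above for 6 members, a pattern not counted over all probe sets, and the arrays of the lines overlapped for RPA1 and RPA3. A fall of more than 2-fold past the same test was seen for 7 members, MCM10, MCM4, PCNA, GINS2, RFC4, CHAF1B and CLSPN, against 1.12% of all probe sets. On single arrays the median over members was 8.19 and 8.28 in PC-3-BM, against 8.63 and 8.68 in PC-3.

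The labels number the arrays and do not say that they came from separate cultures, so p-values here measure an array-to-array spread that could be purely technical, and an exact two-sided permutation test of 2 against 2 cannot go below 0.333. The count of members that fell was 18 without PC-3-BM array 1, 17 without PC-3 array 1 and 13 without PC-3 array 2. Over all probe sets 4.685%, 3.241% and 2.802% fell in those same fits. RFC1 rose in each of them, and ORC3 was past the threshold in none of the fits that left out an array. CDC45, CHAF1B, CLSPN, GINS2, MCM10, MCM3, MCM4, MCM8, PCNA, POLE, PRIM1, RFC4 and TIPIN, 13 of the 37, were past it in all 12 alternative fits. The other members that fell missed it in at least 1 fit, with adjusted p up to 0.187 (RRM2).

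**Figure D1:**
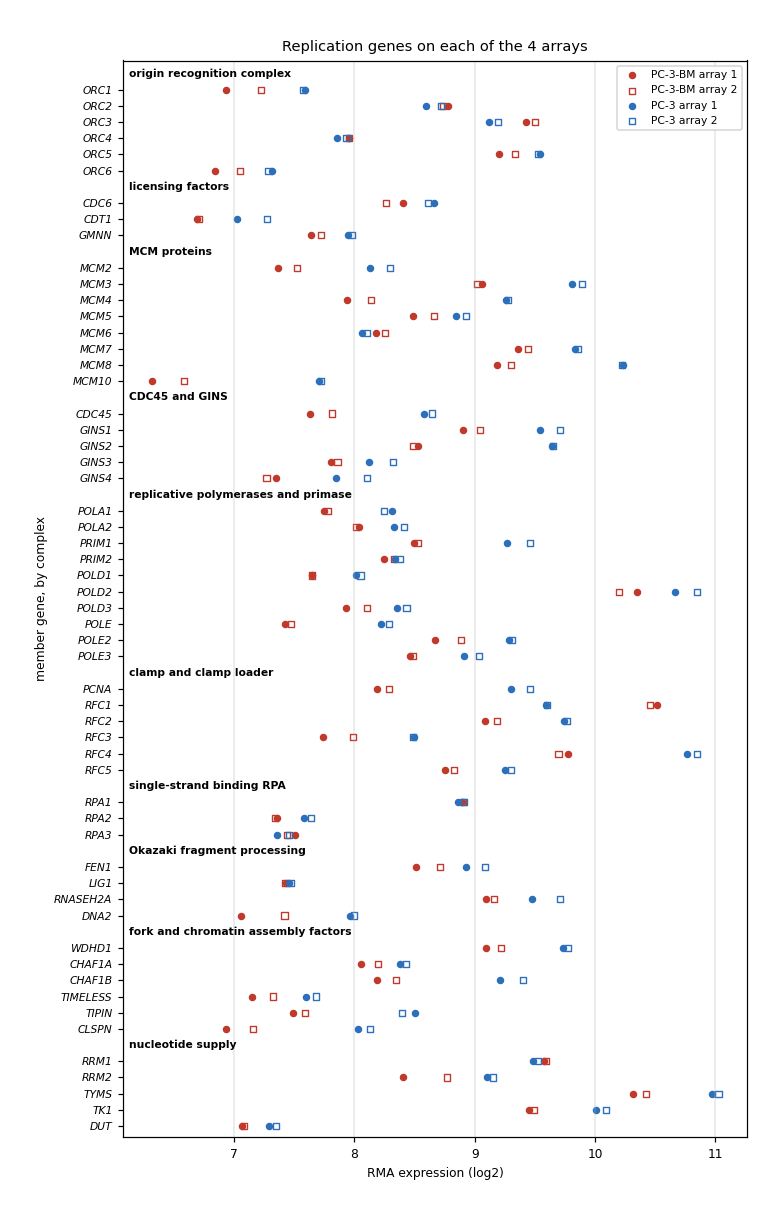
RMA expression (log2, horizontal axis) of each of the 56 members, in rows by complex, on the PC-3-BM arrays (red) and PC-3 arrays (blue), with circles for array 1 and open squares for array 2. The red symbols lie left of the blue ones for 48 members, and RFC1 shows the widest gap the other way.

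**Figure D2:**
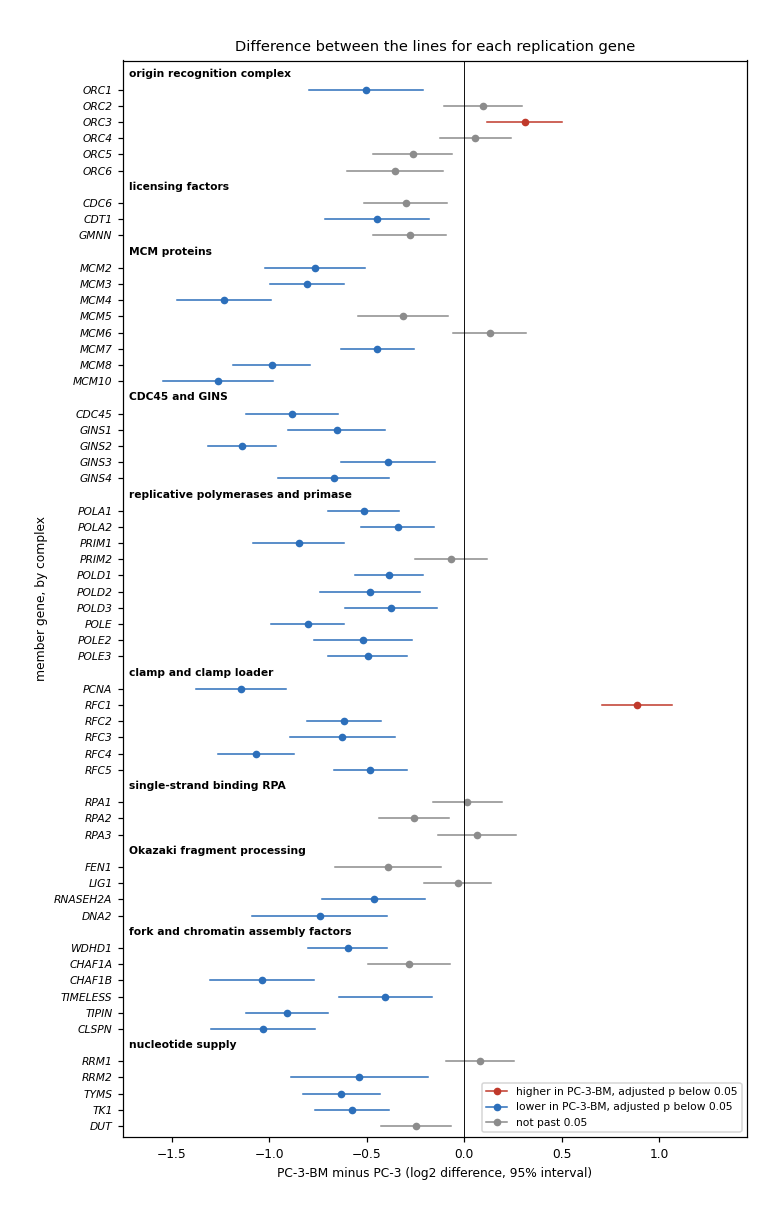
Difference of PC-3-BM minus PC-3 (log2, horizontal axis) with its 95% interval from the limma fit for each member, by complex. Blue marks the 37 members that fell, red the 2 that rose and grey the 17 not past an adjusted p of 0.05.

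Of the 6 ORC subunits 1 fell, 1 rose and 4 did not pass the test, with a median difference of -0.10. ORC1, the large ATPase subunit whose level cycles in human cells, read 6.93 and 7.22 in PC-3-BM, against 7.59 and 7.57 in PC-3. Its arrays did not overlap, and the difference of -0.50 (SE 0.11) had an adjusted p of 0.0361 in limma that reached 0.152 over the alternative fits. ORC3, a core subunit, read 9.43 and 9.50 in PC-3-BM, against 9.12 and 9.19 in PC-3, a rise of 0.31 (SE 0.07, adjusted p 0.0431, or 0.065 with the array number as a block). ORC2 and ORC4 differed by 0.10 and 0.06, and ORC5 and ORC6 by -0.27 and -0.36, none past the threshold.

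All 3 licensing factors lay lower on both PC-3-BM arrays and only CDT1 passed the test. CDT1, which brings MCM2-7 to ORC, read 6.69 and 6.71 in PC-3-BM, against 7.03 and 7.27 in PC-3. The gap of -0.45 (SE 0.10, adjusted p 0.0378) exceeded the spread of either line, yet the adjusted p reached 0.140 over the alternative fits. CDC6, the loading ATPase, and GMNN, the inhibitor of CDT1, differed by -0.30 and -0.28, with adjusted p of 0.0592 and 0.052.

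Of the 8 MCM genes 6 fell and 2 did not pass the test, with a median of -0.79. MCM4, a subunit of the helicase ring, read 7.94 and 8.14 in PC-3-BM, against 9.26 and 9.28 in PC-3, and was 2.35-fold lower (-1.23, SE 0.09, adjusted p 0.0029). MCM3 read 9.06 and 9.02 in PC-3-BM, against 9.81 and 9.89 in PC-3 (-0.81, SE 0.07, adjusted p 0.00404). MCM2 read 7.37 and 7.52 in PC-3-BM, against 8.13 and 8.30 in PC-3 (-0.77, SE 0.10, adjusted p 0.00846). These ring subunits were low on both PC-3-BM arrays, with gaps several times the distance between arrays of a line.

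MCM7 fell by less, at 9.36 and 9.45 in PC-3-BM, against 9.83 and 9.86 in PC-3 (-0.45, SE 0.07, adjusted p 0.0153). MCM5 read 8.49 and 8.66 in PC-3-BM, against 8.85 and 8.93 in PC-3, and the difference of -0.31 missed the threshold (adjusted p 0.067). MCM6 read 8.18 and 8.26 in PC-3-BM, against 8.07 and 8.11 in PC-3, a difference of 0.13 (95% interval -0.06 to 0.32, adjusted p 0.271). The 6 proteins act as 1 ring, and their RNA differed between the lines by amounts between -1.23 and 0.13. The intervals of MCM4 (-1.47 to -0.99) and MCM6 did not meet, and differences between subunits were not tested here or below.

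Outside the ring, MCM10, which binds the helicase as it is activated, was the member with the largest fall. It read 6.31 and 6.58 in PC-3-BM, against 7.70 and 7.72 in PC-3, and was 2.40-fold lower (-1.26, SE 0.11, adjusted p 0.00368). MCM8, which with MCM9 acts in recombination, read 9.18 and 9.30 in PC-3-BM, against 10.24 and 10.22 in PC-3 (-0.99, SE 0.08, adjusted p 0.00299). Both lay far outside the spread of the PC-3 arrays.

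CDC45 and the 4 GINS genes, which turn the loaded ring into a moving helicase, all fell (5 of 5, median -0.67). GINS2 read 8.52 and 8.49 in PC-3-BM, against 9.64 and 9.65 in PC-3. It was 2.20-fold lower (-1.14, SE 0.07) and had the smallest adjusted p of any member, 0.0019. CDC45 read 7.63 and 7.82 in PC-3-BM, against 8.58 and 8.64 in PC-3 (-0.89, SE 0.09, adjusted p 0.0051). GINS1, GINS3 and GINS4 fell by 0.66, 0.39 and 0.67.

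Among the 10 genes for polymerases and primase 9 fell and PRIM2 did not pass the test, with a median of -0.49. PRIM1, the catalytic subunit of primase, read 8.50 and 8.53 in PC-3-BM, against 9.27 and 9.46 in PC-3 (-0.85, SE 0.09, adjusted p 0.00533). Its partner PRIM2, the large primase subunit, differed by -0.07 (95% interval -0.25 to 0.12, adjusted p 0.556). The intervals of these dimer partners did not meet (-1.08 to -0.62 for PRIM1).

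POLE, the catalytic subunit of the leading-strand polymerase epsilon, read 7.43 and 7.48 in PC-3-BM, against 8.22 and 8.29 in PC-3 (-0.80, SE 0.07, adjusted p 0.00394). Its accessory subunits among the members, POLE2 and POLE3, fell by 0.52 and 0.50. Polymerase alpha fell by 0.52 (POLA1, catalytic) and 0.34 (POLA2). The 3 polymerase delta genes among the members fell by 0.39 (POLD1, catalytic), 0.48 (POLD2) and 0.38 (POLD3). With the array number as a block POLA2 and POLD2 missed the threshold (adjusted p 0.0592 and 0.0509).

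The clamp and clamp loader held both the strongest rise and several of the largest falls, with 5 of 6 members lower. PCNA, the sliding clamp, read 8.18 and 8.29 in PC-3-BM, against 9.31 and 9.46 in PC-3, and was 2.21-fold lower (-1.15, SE 0.09, adjusted p 0.00305). RFC4, a small loader subunit, read 9.78 and 9.70 in PC-3-BM, against 10.77 and 10.85 in PC-3, and was 2.10-fold lower (-1.07, SE 0.08, adjusted p 0.00256). RFC2, RFC3 and RFC5, the other small subunits, fell by 0.62, 0.63 and 0.48.

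RFC1, the large loader subunit, went the other way. It read 10.51 and 10.45 in PC-3-BM, against 9.60 and 9.60 in PC-3, and was 1.85-fold higher (0.89, SE 0.07, adjusted p 0.00305). Its rise was past the threshold in all 12 alternative fits. RFC4 and RFC1, subunits of 1 loader, had intervals of -1.27 to -0.88 and 0.71 to 1.06.

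None of the 3 RPA genes passed the test. RPA2, the regulatory middle subunit, read 7.36 and 7.34 in PC-3-BM, against 7.58 and 7.64 in PC-3 (-0.26, SE 0.07, adjusted p 0.0584). Its adjusted p in limma was 0.0218 with 1-symbol probe sets alone and 0.104 with the array number as a block. RPA1, the large DNA-binding subunit, differed by 0.02 (95% interval -0.16 to 0.19) and RPA3 by 0.07 (-0.13 to 0.27). The lower ends of those 2 intervals lay above the difference of every CDC45 and GINS gene, which have intervals of their own. The RPA1 interval met that of GINS3 (-0.63 to -0.15), and no test compared these genes.

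Of the 4 Okazaki fragment genes 2 fell. DNA2, a nuclease-helicase that trims long flaps, read 7.06 and 7.42 in PC-3-BM, against 7.965 and 7.999 in PC-3 (-0.74, SE 0.13, adjusted p 0.0199, at most 0.110 over the alternative fits). RNASEH2A, the catalytic subunit of ribonuclease H2, read 9.10 and 9.16 in PC-3-BM, against 9.48 and 9.71 in PC-3 (-0.47, SE 0.10, adjusted p 0.0333, at most 0.135). The flap endonuclease FEN1 differed by -0.39 with an adjusted p of 0.0581, and the ligase LIG1 by -0.03 (95% interval -0.21 to 0.14).

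Fork and chromatin assembly factors had 5 falls among 6 genes (median -0.75). CHAF1B, a subunit of the assembly factor CAF-1 that places histones behind the fork, read 8.19 and 8.34 in PC-3-BM, against 9.21 and 9.40 in PC-3 (-1.04, SE 0.10, adjusted p 0.00479). CHAF1A, the large subunit of CAF-1, differed by -0.28 and missed the threshold (adjusted p 0.0699). CLSPN, the checkpoint mediator claspin, read 6.93 and 7.16 in PC-3-BM, against 8.03 and 8.13 in PC-3 (-1.03, SE 0.10, adjusted p 0.00479). Its second probe set gave a like picture at a lower brightness, with 5.81 and 5.99 in PC-3-BM, against 6.77 and 6.92 in PC-3 (-0.95, SE 0.10). The fork protection partners TIPIN and TIMELESS fell by 0.91 and 0.40, and WDHD1, which links helicase and polymerase alpha, fell by 0.60.

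In nucleotide supply 3 of 5 genes fell. TYMS, the thymidylate synthase, read 10.32 and 10.42 in PC-3-BM, against 10.97 and 11.03 in PC-3 (-0.63, SE 0.08, adjusted p 0.00726). TK1, the cytosolic thymidine kinase, read 9.45 and 9.49 in PC-3-BM, against 10.004 and 10.091 in PC-3 (-0.57, SE 0.07, adjusted p 0.00818). RRM2, the S-phase subunit of ribonucleotide reductase, fell by 0.54 and had the largest spread of any member between the PC-3-BM arrays (0.37) and an adjusted p of 0.0481. RRM1, the stable large subunit of that enzyme, differed by 0.08 (95% interval -0.09 to 0.26), and DUT, the dUTPase, by -0.25 (adjusted p 0.0642).

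Within each line most members leaned toward array 2. On PC-3-BM array 2, 44 of 56 members read higher than on array 1 (median 0.08, against -0.01 over all probe sets). On PC-3 array 2, 48 of 56 read higher than on array 1 (median 0.05, against 0.00). The largest gap between arrays of a line was 0.37 in PC-3-BM and 0.26 in PC-3. These shifts within a line were smaller than the median difference between the lines.

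Genes around the replication fork that were not among the members were read in the same fit. In that fit 11.6% of all probe sets fell and 11.6% rose. Of the genes no dimmer than the dimmest member 21.2% fell. Of 17 firing and licensing regulators 9 fell (52.9%) and 0 rose at the adjusted threshold in limma (median -0.29). CCNE2, a cyclin that drives entry into S phase, read 6.56 and 6.67 in PC-3-BM, against 8.43 and 8.56 in PC-3 (-1.88, SE 0.09, adjusted p 0.00134), while its relative CCNE1 differed by -0.12 (adjusted p 0.267). DTL, which targets CDT1 for destruction, fell by 0.88, and CDC7, the kinase that fires origins, fell by 0.60.

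Of 19 accessory fork and clamp factors 9 fell (47.4%) and 1 rose (median -0.22). DSCC1, part of an alternative clamp loader, fell by 1.65, and PCLAF, which binds PCNA, fell by 1.23. POLD4, the small polymerase delta subunit, rose by 0.36, and POLE4, a polymerase epsilon subunit, fell by 0.75. Of 12 measured nucleotide enzymes outside the members 8 fell (66.7%) and 0 rose (median -0.36). The largest falls were those of SAMHD1, a dNTP hydrolase, at -1.01 and DCTPP1, a dCTP pyrophosphatase, at -0.98. The list's falls also took in enzymes that make nucleotides, among them RRM2B (0.56), NME2 (0.54) and DCK (0.39).

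Polymerases that act outside bulk replication and genes of mitosis had medians nearer 0. Of 16 translesion, repair and mitochondrial polymerase genes 2 fell, or 12.5% (POLQ by 0.68 and PRIMPOL by 0.65). The 1 that rose was REV1, by 0.45, and the median was -0.12. Of 23 measured mitotic genes 6 fell, or 26.1%, and 0 rose (median -0.14). That share lay near the 21.2% among genes no dimmer than the dimmest member. The largest mitotic falls were those of CDK1 (0.75) and ESPL1 (0.46). MKI67, the gene of the Ki-67 proliferation antigen, read 8.72 and 8.80 in PC-3-BM, against 8.56 and 8.65 in PC-3 (0.16, SE 0.08, adjusted p 0.211). No test compared these lists with the members.

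The 19 regulators of E2F and of the DREAM complex, which represses cell cycle genes, moved both ways. There were 9 falls (47.4%), 5 rises and a median of -0.37. The largest fall was that of MYBL2, a transcriptional activator of late cell cycle genes, which read 8.29 and 8.54 in PC-3-BM, against 9.61 and 9.82 in PC-3 (-1.30, SE 0.12). LIN9 fell by 1.10 and E2F1 by 0.63. RB1, the retinoblastoma gene, rose by 0.86, at 9.29 and 9.31 in PC-3-BM, against 8.52 and 8.37 in PC-3. The other genes that rose were RBL2, LIN37, E2F7 and the repressor E2F4.

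**Figure D3:**
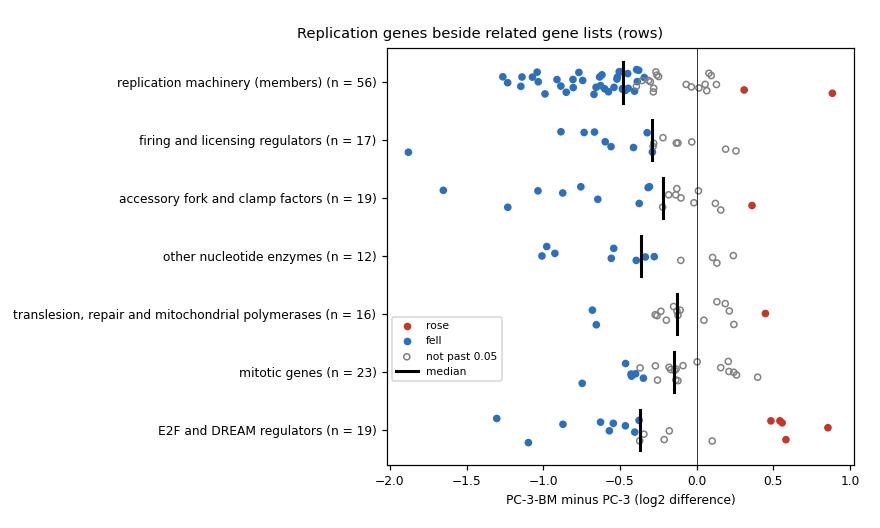
Difference of PC-3-BM minus PC-3 (log2, horizontal axis) for each gene of the replication machinery and of 6 related lists, in rows with the number of genes measured. Filled points passed an adjusted p of 0.05 (red rose, blue fell), open points did not, and black bars are medians, -0.48 for the members and -0.12 to -0.37 for the other lists.

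Promoter windows of 300 bases (250 before the start and 50 after it) were searched for fixed words on both strands. Of the 56 members 49 matched a RefSeq promoter entry by symbol, and RPA3, RPA2, DNA2, MCM5, MCM4, POLD3 and GINS4 did not. An E2F word stood in 23 of those 49 members (46.9%), against 5.51% of the 14239 genes on the array with a promoter entry and 3.31% of all 35116 windows. A CCAAT box stood in 30 of 49 members and 42.2% of array genes. The words TTTGAA or TTTAAA, found in the repressor element of many mitotic genes, stood in 7 of 49 members and 16 of 18 mitotic genes, against 24.3% of array genes, while E2F words stood in 1 of those 18.

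Falls were counted in members with and without an E2F word. Of the 23 with a word 17 fell and 1 rose (median -0.52), and of the 26 without one 16 fell and 1 rose (median -0.47). MCM6, picked above with its values in view, held paired words and differed by 0.13. RFC4, picked for its large fall, held no exact word and fell by 1.07. Both were picked on their values, so setting them side by side tests nothing about E2F words. Over all array genes with a promoter entry 23.1% of those with a word and 14.8% of those without one fell.

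To show the genes around each member on its chromosome, it was set beside up to 10 genes on each side in RefSeq gene order, as a description. Of the 56 members 51 lay below the median difference of their neighbours. All 37 that fell did so, 35 of them by more than 0.3. Because the 37 were picked as fallen, their place below the neighbours was largely fixed in advance. The median over members of the neighbour median was -0.06. Neighbours were lowest around MCM10 on chromosome 10, with a median of -0.32 and 10 of 20 fallen, and medians around MCM8 on chromosome 20 and TIPIN on chromosome 15 were both -0.21. Around RFC1 on chromosome 4 the neighbour median was 0.38 and 12 of 20 neighbours rose, against the 0.89 of RFC1 itself.

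Neighbours of ORC2, ORC4, PRIM2 and DUT also stood above 0.2, with medians of 0.36, 0.27, 0.25 and 0.23, and these members lay below them by 0.27, 0.21, 0.31 and 0.48. Around MCM4, PCNA, GINS2 and RFC4 the neighbour medians were 0.03, -0.16, -0.13 and -0.12, against falls of more than 2-fold in the members. The part of the surrounding chromosome segment in the differences of the members was not tested.

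**Figure D4:**
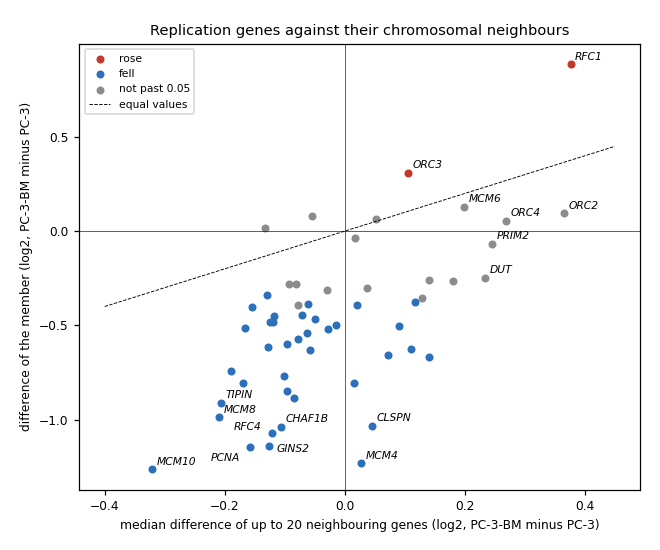
Difference of each member (log2, vertical axis) against the median difference of up to 20 neighbouring genes (log2, horizontal axis), PC-3-BM minus PC-3. Points below the dashed line of equal values, 51 of 56, are members lower than their neighbours, and RFC1 at the upper right stands above a neighbourhood whose median was 0.38.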

How the data were processed

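Total RNA of 2 PC-3-BM and 2 PC-3 samples was labelled and hybridised to Affymetrix Human Gene 1.0 ST arrays. Per the study's methods and the submitters' processing notes (limma 3.24, R 3.2), the authors made log2 values by RMA, a method that subtracts background, brings all arrays to a common distribution by quantile normalisation and combines probes into probe sets. The deposited log2 values of 33297 probe sets were used as they stood. That normalisation removes any shift shared by all transcripts, so differences are relative to the array as a whole. RMA gives no detection call and no read depth, and the number of arrays limits the precision.

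Probe sets were named from the platform annotation, with 19460 given 1 symbol, 1754 several and 12083 none, and 19429 matched to the RefSeq gene table (GRCh38.p14), which served for names and gene order only. The study's methods name no genome build. PC-3-BM and PC-3 were compared with limma 3.58.1 in R 4.3.3 (lmFit and eBayes, no covariate, Benjamini-Hochberg over all probe sets, threshold 0.05), which was checked on simulated data. SE is the moderated standard error. The members and lists were chosen with earlier results of these data known. Values on every array are given for the 2 members of each complex with the largest differences past the threshold, members that rose, the largest difference of a complex with none past it, and PCNA and MCM2 to MCM7 and MCM10; of every other list the 2 largest past the threshold are named, and other genes were added after their values were seen. Alternatives were median centring, renewed quantile normalisation, a mean above 5, 1-symbol probe sets, gene means, a variance trend, robust variance, the replicate number as a block, leaving out each array, and the study's thresholds. No protein or human chromosome 8 sequence is shown.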

Additional observations from a re-analysis of the deposited data

How the results depend on the processing

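Against 37 members that fell in the deposited values, 33 fell after median centring, 37 after renewed quantile normalisation (35 shared), 46 with a mean above 5, 46 with 1-symbol probe sets, 37 with gene means, 45 with a variance trend and 37 with robust variance. Over all features 9.77%, 11.5%, 17.7%, 20.8%, 11.6%, 13.6% and 11.6% fell in those fits, in that order. The members gained with a mean above 5 and with 1-symbol probe sets were ORC5, ORC6, CDC6, GMNN, MCM5, RPA2, FEN1, CHAF1A and DUT. The replicate number as a block (replicate block) gave 36 that fell, 35 of them shared, and 1 that rose, against 9.37% of all probe sets that fell; POLA2, POLD2 and ORC3 lost their calls. Over all probe sets the deviations of same-numbered arrays correlated at -0.02, though most members read higher on array 2 in both lines; the labels tie the numbers to no shared batch, so they were not read as pairs. Leaving out 1 array gave 13 to 26 that fell (2.80% to 5.24% of all probe sets) and 1 that rose, with the lone array of a line assumed to vary like the arrays of the other line. At the study's thresholds (adjusted p of 0.001 and a log2 difference of 2) limma gave 0 members that fell and 0 that rose. Over all probe sets 5 fell and 12 rose there. The study itself reports more genes at those thresholds, and the cause of that gap was not tested. The median difference lay between -0.52 and -0.42 and the count past 2-fold between 5 and 8 over all settings but the study's thresholds. Median centring moves every difference by the same amount, and LIG1, at -0.03 before it, stood at 0.00094 after it. RPA1 ranged between -0.0078 (without PC-3 array 1) and 0.039 over the fits leaving out an array. Neither gene was past the threshold. Median centring moved the median of all probe sets to 0.01 and the calls to 4212 higher and 3254 lower, against 3854 and 3863. Of 672 single-gene values under the alternatives, 554 kept direction and side of the threshold, 87 lost the call, 29 gained it and 2 changed sign. Precision is limited by 2 arrays per line.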
